A study of Homo sapiens with 12 samples.

Results

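The endoplasmic reticulum (ER) chaperone system and the cytosolic heat shock system were followed through 46 genes in OCI-Ly7 cells treated with a Btk inhibitor. The genes were listed by function, but with earlier results of these data known. Of them 29 act in the ER. These comprise 16 of protein folding, 8 of the removal or transport of ER proteins, and 5 stress sensors or regulators of the translation factor eIF2α. The other 17 belong to the cytosolic heat shock system, including its mitochondrial relative HSPD1. On the array used, 19775 genes had at least 1 probe set (a group of short probes read as 1 value) carrying a single gene symbol, and 42 of the 46 genes were among them. These 42 comprised 28 of the ER genes and 14 of the cytosolic genes. HSPA1A and HSPA8, the inducible and the constitutive cytosolic Hsp70, and SYVN1, the ubiquitin ligase also called HRD1, had only probe sets shared with other symbols, and AHSA1, an activator of Hsp90, had no listed probe set, so no value is given for these 4 genes. Each gene was read from its brightest single-symbol probe set, and none of the 42 was dim, that is, below the median log2 intensity of 3.87 over all probe sets.

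OCI-Ly7 is an established human B-cell non-Hodgkin lymphoma line, of the diffuse large B-cell type. Cells kept in DMEM with 10% FBS received ibrutinib at 1 μM or at 10 μM, PLS-123 at 1 μM, or vehicle alone for 24 hours, and total RNA of 3 samples per group was read on 12 whole-genome arrays. Ibrutinib and PLS-123 are both covalent inhibitors of Btk, the kinase that carries the signal of the B-cell receptor. No genetic change was made, and all 4 groups were the same line. The p-values rest on the spread between samples within a group, estimated over all 4 groups together. No label tells if the arrays of a group came from different cultures, so that the p-values may not cover the spread between cultures. All values below are log2 intensities of a probe set, and all differences are differences of log2 intensity, so that a difference of -1 is a halving. Differences were tested with limma over 54613 probe sets, and a gene was called when its Benjamini-Hochberg adjusted p was under 0.05.

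As background, proteins that enter the ER are folded by BiP (HSPA5), GRP94 (HSP90B1), the calnexin and calreticulin lectins and the protein disulfide isomerases, and those that fail are passed back to the cytosol and degraded. A surplus of unfolded protein is sensed by ATF6, IRE1 (ERN1) and PERK (EIF2AK3), which raise the chaperone genes through ATF6 and XBP1 and slow translation through eIF2α. The cytosol has its own arm, in which HSF1 raises the Hsp70, Hsp90 and Hsp40 genes. B cells lean on the ER arm when they turn into antibody-secreting plasma cells.

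Some of the genes hold, near their start, sequences to which these factors are known to bind, and 8 such stretches are shown to set the elements of the ER arm beside those of the cytosolic arm. They were taken from RefSeq (GRCh38.p14), which gave promoter windows for 42 of the 46 genes, each reaching from 250 bases before an annotated start to 50 bases after it. Each is printed 5′ to 3′ on the strand of the gene. Capitals mark the ER stress element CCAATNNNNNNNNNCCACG (HSPA5, HSP90B1, CRELD2), the ER stress element II ATTGGNCCACG (SDF2L1, HERPUD1), the ATF4 site TGATGCAA (HERPUD1, first block of capitals) or the heat shock element GAANNTTCNNGAA (HSP90AA1, HSP90AB1, DNAJB6), each searched on both strands, with only the fixed letters in capitals. HSP90B1 holds 2 ER stress elements and HSP90AB1 holds 2 heat shock elements. The stretches lie at chr9:125241374-125241443 (HSPA5, minus strand), chr12:103930210-103930349 (HSP90B1, plus), chr22:49918534-49918603 (CRELD2, plus), chr22:21642082-21642151 (SDF2L1, plus), chr16:56931952-56932051 (HERPUD1, plus), chr14:102087095-102087164 (HSP90AA1, minus), chr6:44247763-44247852 (HSP90AB1, plus) and chr7:157336844-157336913 (DNAJB6, plus).
HSPA5: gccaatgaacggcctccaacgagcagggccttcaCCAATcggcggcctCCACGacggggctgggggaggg
HSP90B1: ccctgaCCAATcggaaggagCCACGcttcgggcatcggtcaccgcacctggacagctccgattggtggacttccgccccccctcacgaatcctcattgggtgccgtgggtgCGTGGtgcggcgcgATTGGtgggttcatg
CRELD2: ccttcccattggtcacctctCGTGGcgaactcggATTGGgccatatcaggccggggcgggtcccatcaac
SDF2L1: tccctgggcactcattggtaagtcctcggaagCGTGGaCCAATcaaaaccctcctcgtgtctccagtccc
HERPUD1: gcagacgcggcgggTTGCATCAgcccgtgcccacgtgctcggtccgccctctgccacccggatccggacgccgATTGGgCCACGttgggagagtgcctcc
HSP90AA1: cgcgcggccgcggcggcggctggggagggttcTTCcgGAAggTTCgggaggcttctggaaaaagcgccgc
HSP90AB1: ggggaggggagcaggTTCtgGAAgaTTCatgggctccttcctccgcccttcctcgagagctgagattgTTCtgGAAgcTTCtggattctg
DNAJB6: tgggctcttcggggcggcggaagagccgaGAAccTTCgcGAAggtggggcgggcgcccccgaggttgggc

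Among the 26 ER genes with a window, 6 held the ER stress element (CALR, CANX, CRELD2, HSP90B1, HSPA5 and PDIA6). It was held by 25 of all 27305 genes in the table, or 0.0916%, and by 0.0769% of its 35116 windows. The ER stress element II was found in HERPUD1, HYOU1 and SDF2L1, against 19 of all genes, or 0.0696%. The heat shock element was found in 7 of the 16 cytosolic genes with a window (CHORDC1, DNAJA1, DNAJB6, HSP90AA1, HSP90AB1, HSPA8 and HSPD1). It was found in 0 of the ER genes, against 166 of all genes, or 0.608%. The XBP1 site TGACGTGG was found in HYOU1 alone (253 of all genes, 0.927%), where it shares letters with 1 of its 2 ER stress elements II. The ATF4 site was found in HERPUD1 and PPP1R15B (295 of all genes, 1.08%). In CHORDC1 and HSPD1 the heat shock elements found on the 2 strands share letters. A match says only that the letters are there, and a window without a match says nothing about the factor.

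The 12 arrays had median intensities between 14.2 and 14.8. Array A of 1 μM ibrutinib stood apart: on 28 of the 42 genes it was the array of its group farthest from the group median, and results that change without it are given with both values. Array A of PLS-123 was the farthest of its group on 23 of the 42 genes, and the counts without it are given too. The B-cell identity of the line was visible, since 7 of 8 B-cell marker genes were measured and none was dim, whereas 6 of 7 measured T and NK cell markers and 4 of 6 measured myeloid markers were dim, and no T, NK or myeloid marker was called in any comparison with vehicle. Their summed intensity was 66.5 to 71.5 (T and NK) and 59.7 to 62.0 (myeloid) with vehicle and 67.0 to 79.97 and 58.3 to 62.3 with PLS-123. B-cell and plasma cell markers did move with treatment. Their summed intensity was 14152 to 14633 (B cell) and 5608 to 5737 (plasma cell) on the vehicle arrays, 13813 to 14057 and 5087 to 6018 with 1 μM ibrutinib, 11080 to 11265 and 4808 to 4986 with 10 μM ibrutinib, and 10507 to 11187 and 4735 to 5910 with PLS-123. With PLS-123, 10.4% of all probe sets were called lower and 6.36% higher, and of the genes that were not dim 19.8% and 11.2%. Of the 7 B-cell markers 5 were called lower with PLS-123, CD22 most (-2.14), and CD79B higher (0.31). Of the 8 plasma cell markers 3 were called lower, the receptor TNFRSF17 most (-2.60), and 0 higher, and JCHAIN had the highest value (0.16, not called). The part of these markers in the results below was not tested. The difference between the 3′ and 5′ control probe sets of ACTB, a sign of RNA integrity that is larger in more degraded RNA, was 2.59 to 2.68 with vehicle, 2.55 to 2.87 and 2.69 to 2.83 with the lower and higher ibrutinib dose, and 2.80 to 3.17 with PLS-123. That of GAPDH was 0.27 to 0.35 with vehicle, 0.24 to 0.31 and 0.38 to 0.40 with the lower and higher ibrutinib dose, and 0.44 to 0.47 with PLS-123, so that the last 2 groups lay above the others. The ACTB difference was tried as a covariate and the calls lost with it are named below, whereas the part of the GAPDH difference was not tested. As the ACTB difference was larger on every PLS-123 array than on any vehicle array, the covariate runs with the treatment. A call lost with the covariate therefore cannot be assigned to RNA integrity or to the treatment. As RNA was taken from all cells together, fewer cells of a kind and less RNA per cell cannot be told apart.

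At 1 μM, ibrutinib changed none of the genes by limma. The counts called lower and higher were 0 of 28 ER genes and 0 of 14 cytosolic genes, and over all probe sets 0% were called lower and 0% higher. At an unadjusted p under 0.05, 1 ER gene and 1 cytosolic gene passed, HSP90B1 (-0.24, adjusted p = 0.917) and HSF1 (-0.24, adjusted p = 0.917), against 2943 of all 54613 probe sets. The methods' t-test with the same adjustment also called 0 of the 42 genes. The 42 differences lay between -0.24 (HSF1) and 0.24 (CHORDC1), with a median of -0.03 in the ER genes and -0.02 in the cytosolic genes, against 0.00 over the 12040 genes whose brightest probe set was not dim. Without array A of this group, 0 genes were called as well.

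At 10 μM, ibrutinib lowered 5 ER genes (ERP44, SDF2L1, CRELD2, SEL1L and PPP1R15A) and raised 2 (EDEM1 and DNAJB9), while in the cytosolic arm it raised HSPB1 and lowered none of the 14. Over all probe sets 4.62% were called lower and 5.39% higher. Over the genes that were not dim, 9.03% were called lower and 10.4% higher. That set leaves out the dim probe sets but is not matched to the listed genes in brightness. It holds every gene above the median, whereas many of the listed genes were far brighter. HSPA5, CANX and ERP44 lay at percentiles 98.9, 99.2 and 95.4 of all probe sets, and the least bright, SEC24D, at 59.9. Shares at matched brightness were not tested. The median difference was -0.10 in the 28 ER genes and -0.02 in the 14 cytosolic genes, against -0.01 over the genes that were not dim. Of the 28 ER genes 17 and of the 14 cytosolic genes 4 had an unadjusted p under 0.05, against 11657 of all 54613 probe sets. With dim probe sets left out, 9499 of 27307 had one. The methods' t-test also called no cytosolic gene lower. Without array A of 1 μM ibrutinib, which enters only through the shared estimate of the spread, 8 ER genes were called lower, and without array B of PLS-123 2 cytosolic genes were called higher.

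PLS-123 at 1 μM lowered 12 ER genes and raised the same pair, EDEM1 and DNAJB9. In the cytosolic arm it lowered 3 genes (DNAJB1, DNAJB6 and STIP1) and raised none by limma. Of the 28 ER genes 15 (17 with 10 μM ibrutinib) and of the 14 cytosolic genes 6 had an unadjusted p under 0.05, against 15812 of all 54613 probe sets. With dim probe sets left out, 12762 of 27307 had one. The methods' t-test and the fit without array B of PLS-123 each called 1 cytosolic gene higher. Over all probe sets 10.4% were called lower and 6.36% higher, and over the genes that were not dim 19.8% were called lower and 11.2% higher. The ER genes called lower were thus 42.9% of those measured, and the cytosolic genes called lower were 21.4%, close to the 19.8%. As the genes that were not dim are not matched in brightness, the share lower among equally bright genes may differ and was not tested. The median difference was -0.14 in the ER genes and -0.03 in the cytosolic genes, against -0.06 over the genes that were not dim. With the ACTB 3′ to 5′ difference as a covariate, 9 ER genes were called lower and 1 higher, and 0 cytosolic genes were called. That fit called 1928 of all 54613 probe sets lower and 1552 higher, against 5664 and 3476 without the covariate. Of the 17 calls among the listed genes, the 7 lost were those of DNAJB9, MANF, HERPUD1, ERN1, DNAJB1, DNAJB6 and STIP1. Without array A of PLS-123, 12 ER genes were called lower and 2 higher, and 3 cytosolic genes lower.

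**Figure D1:**
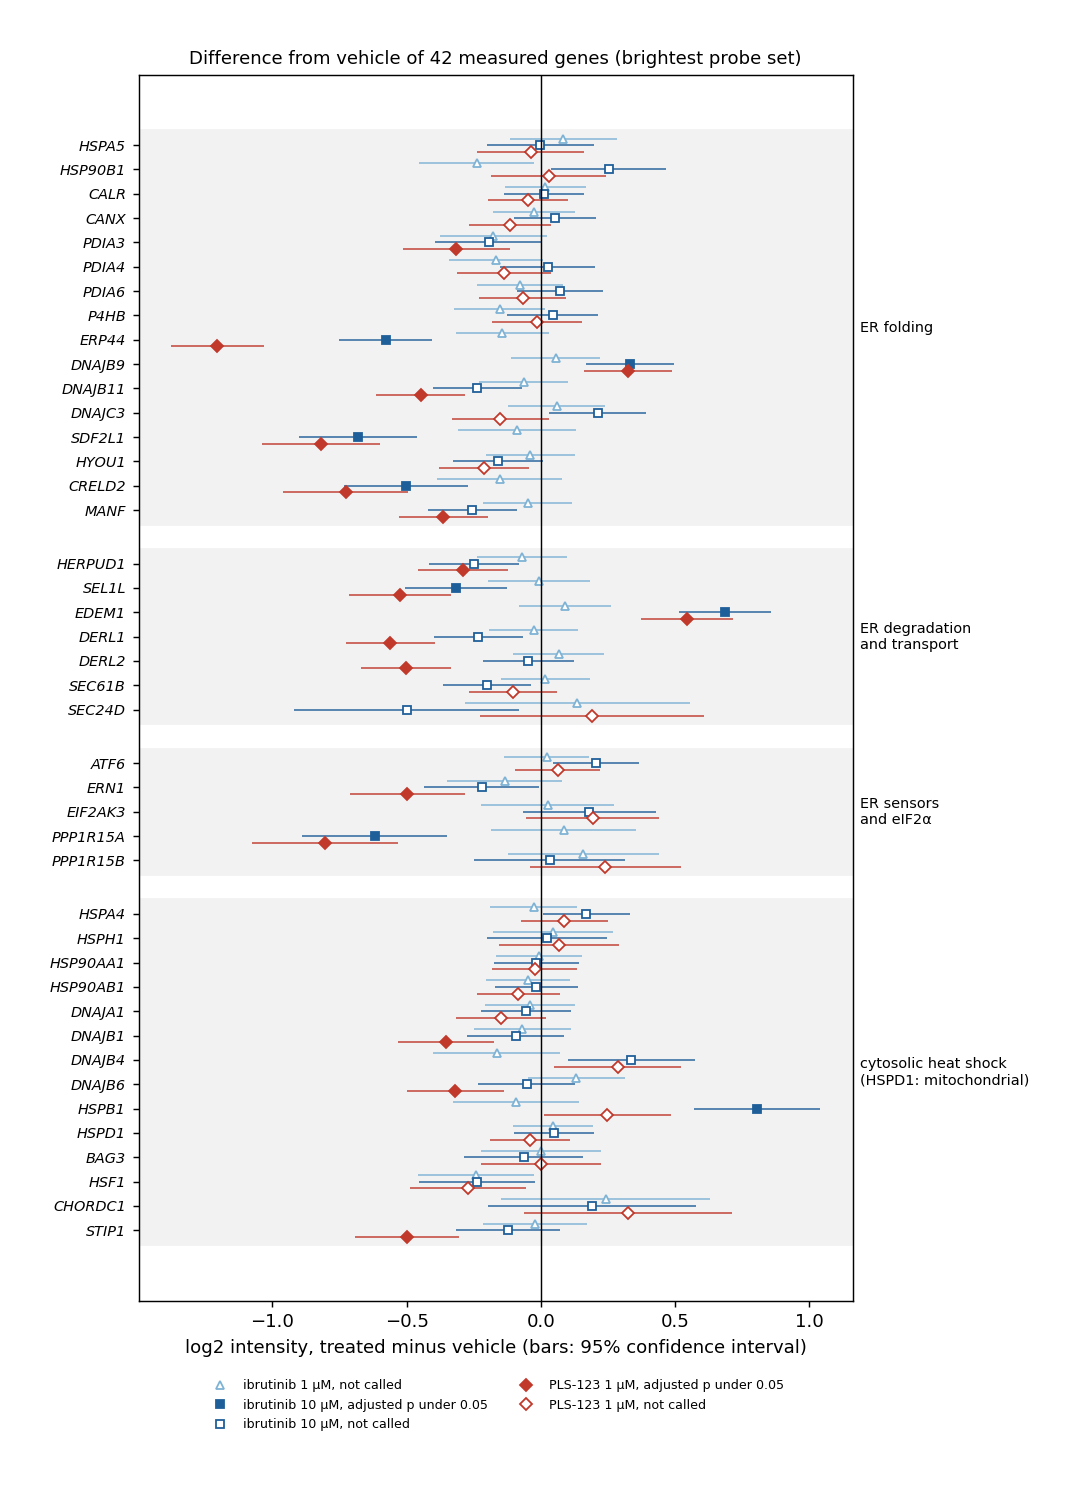
Difference in log2 intensity from vehicle (horizontal axis, mean of 3 arrays minus mean of 3 vehicle arrays, bars for the 95% confidence interval) of the 42 measured genes, grouped by role. Filled marks have a limma adjusted p under 0.05, of which 1 μM ibrutinib has 0, 10 μM ibrutinib 8 and PLS-123 17, and ERP44 with PLS-123 lies farthest from 0 at -1.20.

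The 2 most familiar ER chaperones were not called in any comparison. HSPA5, the Hsp70 of the ER and its most used stress marker, read 11.51, 11.36 and 11.41 on the vehicle arrays, 11.68, 11.38 and 11.48 with 1 μM ibrutinib, 11.43, 11.52 and 11.33 with 10 μM ibrutinib and 11.44, 11.35 and 11.38 with PLS-123. The 4 groups overlapped. Its difference from vehicle was -0.00 with 10 μM ibrutinib (95% confidence interval -0.20 to 0.20) and -0.04 with PLS-123 (-0.24 to 0.16), with limma adjusted p of 0.994 and 0.839.

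HSP90B1, the Hsp90 of the ER, read 9.12, 9.26 and 9.13 with vehicle, 8.75, 9.08 and 8.98 with 1 μM ibrutinib, 9.53, 9.45 and 9.29 with 10 μM ibrutinib and 9.27, 9.16 and 9.17 with PLS-123. The arrays of 10 μM ibrutinib were all above those of vehicle, with a difference of 0.25 that was not called (limma adjusted p = 0.147), while PLS-123 overlapped vehicle (0.03, 95% confidence interval -0.19 to 0.24). The lectins calreticulin and calnexin and 3 of the disulfide isomerases were likewise not called with either drug. With PLS-123, CALR differed by -0.05, CANX by -0.12, PDIA4 by -0.14, PDIA6 by -0.07 and P4HB by -0.01, although a dimmer probe set of CANX fell by 0.46 (limma adjusted p = 0.00221). HYOU1, the nucleotide exchange factor of BiP, differed by -0.21 (limma adjusted p = 0.0808), and DNAJC3, a BiP co-chaperone that also restrains PERK, by -0.15, while a dimmer probe set of DNAJC3 fell by 0.44 (limma adjusted p = 0.00874).

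ERP44, a disulfide isomerase that retrieves unassembled secretory proteins such as IgM subunits from the Golgi, changed more with PLS-123 than any other of the 42 genes. It read 10.16, 10.18 and 10.18 with vehicle, 9.94, 10.08 and 10.06 with 1 μM ibrutinib, 9.49, 9.66 and 9.64 with 10 μM ibrutinib and 9.05, 8.92 and 8.94 with PLS-123. No groups overlapped, and the step from vehicle to 1 μM ibrutinib was not called (-0.14, limma adjusted p = 0.92). It fell by 0.58 with 10 μM ibrutinib (95% confidence interval -0.75 to -0.41, limma adjusted p = 0.000258) and by 1.20 with PLS-123 (-1.38 to -1.03, limma adjusted p = 2.18e-07). On the linear scale the intensity with PLS-123 fell by 56.6%. All 3 of its probe sets were called lower with PLS-123, the other two by -0.71 and -0.53.

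SDF2L1, a partner of BiP and of the ER J-proteins that is itself a sharp stress target, read 9.34, 9.30 and 9.27 with vehicle, 8.98, 9.37 and 9.29 with 1 μM ibrutinib, 8.60, 8.57 and 8.70 with 10 μM ibrutinib and 8.57, 8.38 and 8.49 with PLS-123. Both the higher ibrutinib dose and PLS-123 lay wholly below vehicle and below 1 μM ibrutinib. It fell by 0.68 and by 0.82 (limma adjusted p = 0.000497 and 8.11e-05).

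CRELD2, an ER-resident disulfide isomerase, read 9.31, 9.53 and 9.28 with vehicle, 9.03, 9.35 and 9.29 with 1 μM ibrutinib, 8.74, 8.87 and 9.0 with 10 μM ibrutinib and 8.71, 8.69 and 8.54 with PLS-123. These last 2 groups lay below the other 2. CRELD2 fell by 0.50 with 10 μM ibrutinib and by 0.73 with PLS-123 (limma adjusted p = 0.00763 and 0.00036). DNAJB11, the J-protein that delivers unfolded clients to BiP, read 10.75, 10.68 and 10.66 with vehicle and 10.33, 10.23 and 10.18 with PLS-123, with no overlap. It fell by 0.45 with PLS-123 (limma adjusted p = 0.00116) and differed by -0.24 with 10 μM ibrutinib (limma adjusted p = 0.074).

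MANF, a small ER-retained factor that binds BiP, fell by 0.36 with PLS-123, and PDIA3, the disulfide isomerase of glycoproteins, fell by 0.31 (limma adjusted p = 0.005 and 0.0316). With the ACTB difference as a covariate MANF was not called (-0.30, limma adjusted p = 0.111). PDIA3 was not called without array A or C of vehicle or without any 1 array of PLS-123 (limma adjusted p up to 0.108), and its difference was 0.08 when the median over its probe sets on each array was used. Its call was also lost with quantile normalization (-0.25, limma adjusted p = 0.0669). In the ER folding group PLS-123 thus lowered 6 of 16 genes and raised 1, against 19.8% and 11.2% of the genes that were not dim.

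The gene raised was DNAJB9, the J-protein ERdj4, which holds IRE1 in check. It read 7.79, 7.77 and 7.94 with vehicle, 7.87, 7.91 and 7.89 with 1 μM ibrutinib, 8.23, 8.13 and 8.14 with 10 μM ibrutinib and 8.18, 8.11 and 8.18 with PLS-123. The arrays of the higher ibrutinib dose and of PLS-123 all lay above those of the other groups. It rose by 0.33 and by 0.32 (limma adjusted p = 0.0124 and 0.00997). The rise with 10 μM ibrutinib was not called without array A or B of vehicle or array A of 10 μM ibrutinib (limma adjusted p up to 0.0586), and that with PLS-123 was not called with the ACTB difference as a covariate (0.32, limma adjusted p = 0.1).

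**Figure D2:**
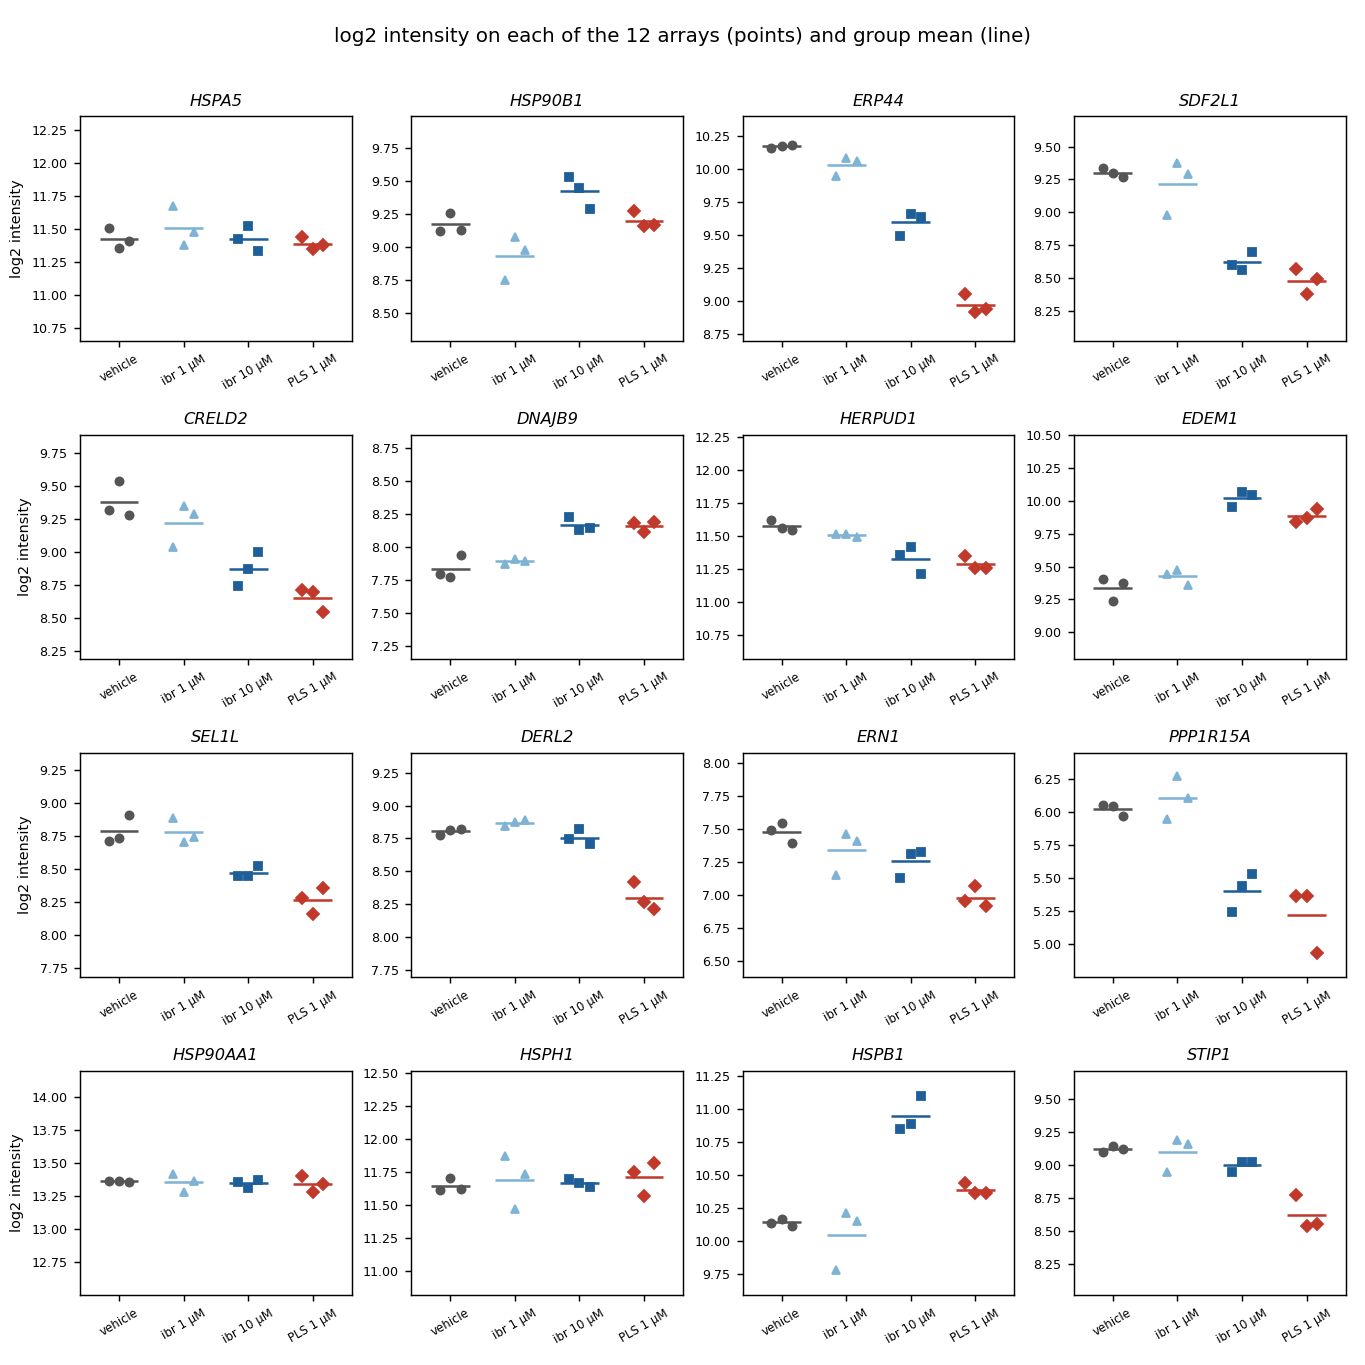
log2 intensity of 16 genes (vertical axis, 1 panel each, the same span of log2 units in every panel) on each of the 12 arrays, with a line at each group mean. HSPA5, HSP90AA1 and HSPH1 overlap across the groups, ERP44 has 4 groups that do not overlap, EDEM1 and DNAJB9 are higher with 10 μM ibrutinib and PLS-123, and HSPB1 is highest with 10 μM ibrutinib.

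In the group that removes or exports ER proteins, PLS-123 lowered 4 of the 7 measured genes and raised EDEM1, and 10 μM ibrutinib lowered SEL1L and raised EDEM1. Of the genes that were not dim, PLS-123 lowered 19.8% and raised 11.2%, and 10 μM ibrutinib lowered 9.03% and raised 10.4%. With 7 genes, the 1 lowered and 1 raised at 10 μM are near those shares. EDEM1, the lectin that hands misfolded glycoproteins to degradation, read 9.40, 9.24 and 9.37 with vehicle, 9.44, 9.48 and 9.36 with 1 μM ibrutinib, 9.95, 10.07 and 10.04 with 10 μM ibrutinib and 9.84, 9.87 and 9.93 with PLS-123. The last pair of groups lay above all arrays of the first pair. EDEM1 rose by 0.68 with 10 μM ibrutinib (limma adjusted p = 5.25e-05) and by 0.54 with PLS-123 (limma adjusted p = 0.000316).

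SEL1L, the scaffold of the HRD1 ligase complex on which EDEM1 clients converge, moved the other way. It read 8.71, 8.73 and 8.91 with vehicle, 8.89, 8.71 and 8.74 with 1 μM ibrutinib, 8.45, 8.44 and 8.52 with 10 μM ibrutinib and 8.28, 8.15 and 8.35 with PLS-123. The last 2 groups lay below the first 2. SEL1L fell by 0.31 with 10 μM ibrutinib (limma adjusted p = 0.0367) and by 0.52 with PLS-123 (limma adjusted p = 0.000975). The call at 10 μM was lost without any 1 array of vehicle or 10 μM ibrutinib or without array C of 1 μM ibrutinib (limma adjusted p up to 0.155), whereas the PLS-123 call was lost in none of the 12 fits that left out 1 array.

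DERL2, a membrane protein of the retrotranslocation channel, read 8.78, 8.81 and 8.82 with vehicle, 8.84, 8.88 and 8.89 with 1 μM ibrutinib, 8.75, 8.82 and 8.71 with 10 μM ibrutinib and 8.42, 8.27 and 8.21 with PLS-123. Only the PLS-123 arrays lay below those of the other groups. It fell by 0.50 with PLS-123 (limma adjusted p = 0.000542) and differed by -0.05 with 10 μM ibrutinib (limma adjusted p = 0.81).

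The probe sets of its relative DERL1 disagreed. The brightest read 9.99, 10.02 and 10.00 with vehicle and 9.46, 9.44 and 9.43 with PLS-123 and fell by 0.56 (limma adjusted p = 0.000174), a second rose by 0.40 (limma adjusted p = 0.0169), and the remaining pair gave 0.28 and -0.10 and were not called. DERL1 was the 1 gene of the 42 with probe sets called in both directions.

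HERPUD1, a ubiquitin-like stress protein that recruits the ligase complex, read 11.62, 11.56 and 11.54 with vehicle, 11.51, 11.51 and 11.49 with 1 μM ibrutinib, 11.35, 11.41 and 11.21 with 10 μM ibrutinib and 11.35, 11.26 and 11.25 with PLS-123. The last 2 groups lay below the first 2. HERPUD1 fell by 0.29 with PLS-123 (limma adjusted p = 0.0204), a call lost without array A or B of vehicle or array B or C of PLS-123 (adjusted p up to 0.073) and with the ACTB difference as a covariate (-0.25, limma adjusted p = 0.214). With 10 μM ibrutinib it differed by -0.25 (limma adjusted p = 0.0619). SEC61B, a subunit of the translocation channel, and SEC24D, a coat protein of vesicles leaving the ER, were not called, with differences of -0.10 and 0.19 with PLS-123, but the 2 dimmer probe sets of SEC24D fell by 0.62 and 0.33 (limma adjusted p = 0.0195 and 0.0222).

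Among the sensors and the eIF2α phosphatase subunits, PPP1R15A changed most. PPP1R15A (GADD34) is the stress-induced subunit that directs the phosphatase to eIF2α and so restores translation. It read 6.06, 6.05 and 5.97 with vehicle, 5.95, 6.27 and 6.10 with 1 μM ibrutinib, 5.24, 5.44 and 5.53 with 10 μM ibrutinib and 5.37, 5.37 and 4.93 with PLS-123. The groups of 10 μM ibrutinib and PLS-123 lay below the others. PPP1R15A fell by 0.62 with 10 μM ibrutinib and by 0.80 with PLS-123 (limma adjusted p = 0.00519 and 0.000553), and its other probe set fell by 0.75 and by 0.93. Its constitutive counterpart PPP1R15B read 9.02, 8.94 and 8.89 with vehicle and 9.30, 9.03 and 9.24 with PLS-123, a difference of 0.24 that was not called (limma adjusted p = 0.25).

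ERN1, which encodes the sensor IRE1, read 7.49, 7.55 and 7.39 with vehicle, 7.15, 7.46 and 7.41 with 1 μM ibrutinib, 7.13, 7.31 and 7.33 with 10 μM ibrutinib and 6.95, 7.07 and 6.91 with PLS-123. The PLS-123 arrays lay below all others. ERN1 fell by 0.50 with PLS-123 (limma adjusted p = 0.00337) and was not called with the ACTB difference as a covariate (-0.36, limma adjusted p = 0.126). In the fit without it, the other 2 probe sets of ERN1 gave 0.09 and -0.23 and were not called, and the first of them rose by 0.41 with 10 μM ibrutinib (limma adjusted p = 0.00765).

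EIF2AK3, the sensor PERK, read 8.57, 8.46 and 8.76 with vehicle and 8.88, 8.66 and 8.82 with PLS-123 and was not called (0.19, limma adjusted p = 0.298). The brightest probe set of ATF6 read 6.82, 6.80 and 6.82 with vehicle, 6.83, 6.87 and 6.80 with 1 μM ibrutinib, 7.05, 7.01 and 7.0 with 10 μM ibrutinib and 6.83, 6.97 and 6.82 with PLS-123 and was not called with either drug. The other 3 probe sets of ATF6 rose with PLS-123, by 0.42, 0.50 and 0.62 (limma adjusted p = 0.0077, 0.00134 and 0.000523), and 2 of these rose with 10 μM ibrutinib, by 0.51 and 0.65. For ATF6 the call, and for ERN1 also the direction, depends on the probe set.

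**Figure D3:**
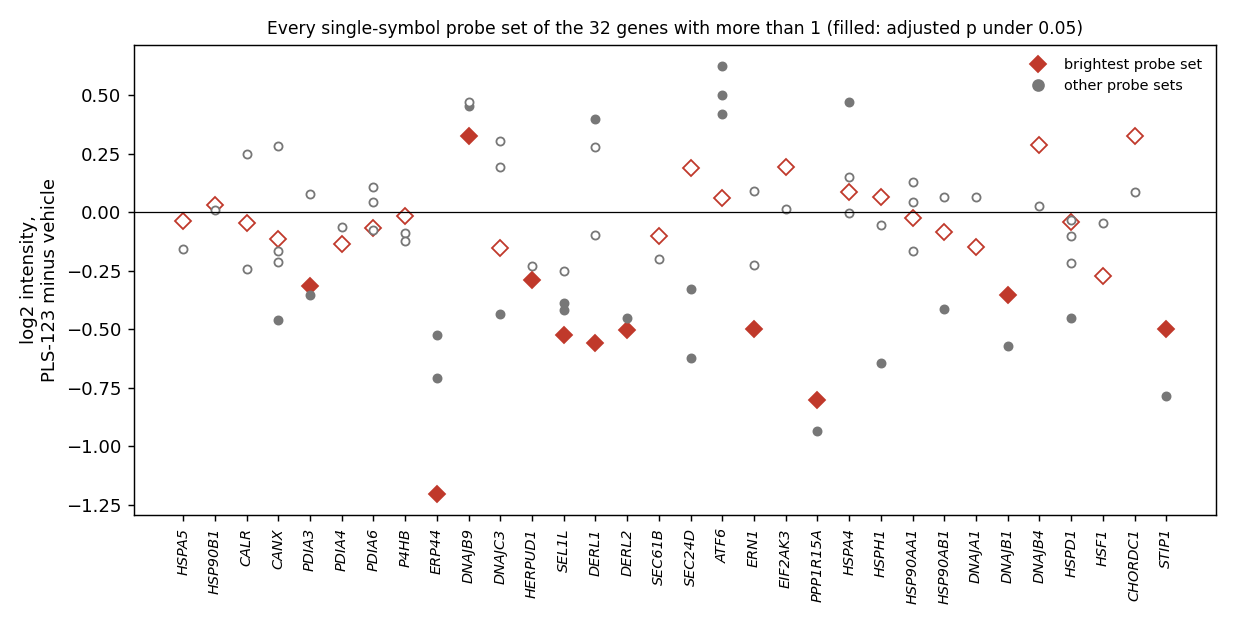
Difference in log2 intensity between PLS-123 and vehicle (vertical axis) for every single-symbol probe set of the 32 genes that have more than 1, with the brightest probe set as a diamond and filled marks for a limma adjusted p under 0.05. The probe sets of ERP44, SEL1L, PPP1R15A, DERL2, STIP1 and DNAJB1 lie on the same side of 0, whereas DERL1 has called probe sets on both sides and ATF6, HSPA4 and HSPH1 have called probe sets that their brightest one does not match.

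By their brightest probe sets, the abundant cytosolic chaperones that were measured stayed near vehicle, though other probe sets of several were called. HSP90AA1, the inducible cytosolic Hsp90, read 13.37, 13.37 and 13.36 with vehicle, 13.42, 13.28 and 13.37 with 1 μM ibrutinib, 13.36, 13.31 and 13.38 with 10 μM ibrutinib and 13.40, 13.28 and 13.34 with PLS-123. The groups overlapped, and the difference with PLS-123 was -0.02 (95% confidence interval -0.18 to 0.14). HSP90AB1, the constitutive Hsp90, differed by -0.08 (-0.24 to 0.07), although a dimmer probe set fell by 0.41 (limma adjusted p = 0.00371).

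HSPH1, the Hsp110 exchange factor of Hsp70, read 11.62, 11.71 and 11.62 with vehicle, 11.87, 11.47 and 11.73 with 1 μM ibrutinib, 11.70, 11.67 and 11.64 with 10 μM ibrutinib and 11.75, 11.57 and 11.82 with PLS-123. Its difference with PLS-123 was 0.07 and was not called, but another of its 3 probe sets fell by 0.64 (limma adjusted p = 0.00012). HSPA4, a second Hsp110, differed by 0.09 in its brightest probe set, while 1 of the other 3 rose by 0.47 with PLS-123 and by 0.69 with 10 μM ibrutinib (limma adjusted p = 0.00297 and 0.000186). HSPD1, the mitochondrial Hsp60, differed by -0.04, and 1 of its 5 probe sets fell by 0.45 (limma adjusted p = 0.00248).

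STIP1, the adaptor that joins Hsp70 to Hsp90, fell most in this arm. It read 9.10, 9.14 and 9.12 with vehicle, 8.95, 9.19 and 9.16 with 1 μM ibrutinib, 8.95, 9.02 and 9.02 with 10 μM ibrutinib and 8.77, 8.54 and 8.55 with PLS-123, the PLS-123 arrays lying below all others. It fell by 0.50 with PLS-123 (limma adjusted p = 0.00163) and differed by -0.12 with 10 μM ibrutinib. Its other probe set fell by 0.78 with PLS-123 and by 0.36 with 10 μM ibrutinib (limma adjusted p = 0.000115 and 0.0377).

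DNAJB1, the main stress-induced Hsp40, read 8.92, 8.95 and 8.80 with vehicle, 8.79, 8.94 and 8.74 with 1 μM ibrutinib, 8.72, 8.84 and 8.84 with 10 μM ibrutinib and 8.59, 8.55 and 8.48 with PLS-123, and fell by 0.35 with PLS-123 (limma adjusted p = 0.0101). DNAJB6, an Hsp40 that suppresses aggregation, read 8.09, 8.14 and 8.18 with vehicle and 7.95, 7.70 and 7.80 with PLS-123 and fell by 0.32 (limma adjusted p = 0.0186). For both genes the PLS-123 arrays lay below all others. With the ACTB difference as a covariate STIP1 (-0.38, adjusted p = 0.0714), DNAJB1 (-0.30, adjusted p = 0.16) and DNAJB6 (-0.35, adjusted p = 0.101) were no longer called by limma. DNAJB6 was also not called without array B or C of vehicle or of PLS-123 (adjusted p up to 0.0771).

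HSPB1, the small heat shock protein Hsp27, was the 1 cytosolic gene to rise with 10 μM ibrutinib. It read 10.14, 10.17 and 10.12 with vehicle, 9.78, 10.21 and 10.16 with 1 μM ibrutinib, 10.85, 10.89 and 11.10 with 10 μM ibrutinib and 10.44, 10.36 and 10.37 with PLS-123. The arrays of 10 μM ibrutinib lay above all others. HSPB1 rose by 0.81 with 10 μM ibrutinib (95% confidence interval 0.57 to 1.04, limma adjusted p = 0.000211), and the difference with PLS-123 was 0.25 and was not called (limma adjusted p = 0.15).

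HSF1, the transcription factor of the heat shock genes, read 7.25, 7.26 and 7.03 with vehicle, 6.75, 7.03 and 7.04 with 1 μM ibrutinib, 6.93, 6.86 and 7.05 with 10 μM ibrutinib and 6.92, 6.91 and 6.90 with PLS-123 and was not called (PLS-123 -0.27, limma adjusted p = 0.0824). The PLS-123 arrays lay below vehicle and within the range of 1 μM ibrutinib. BAG3, a co-chaperone that HSF1 is known to induce, differed by 0.00 with PLS-123 (-0.22 to 0.22). CHORDC1, an Hsp90 co-chaperone, and DNAJA1 and DNAJB4, both Hsp40 proteins, differed by 0.33, -0.15 and 0.29 and were not called.

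**Figure D4:**
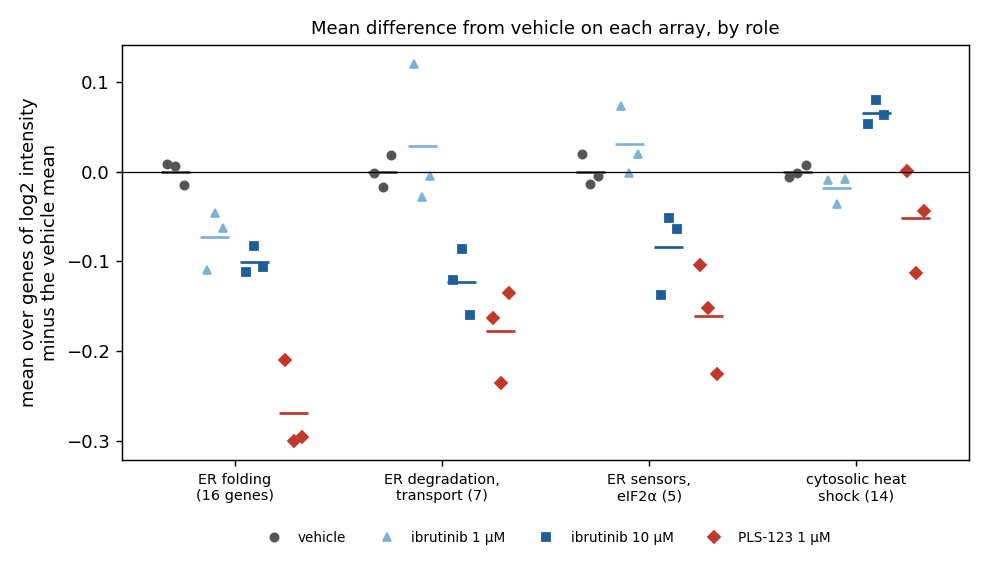
Mean over the genes of each role of log2 intensity minus the vehicle mean (vertical axis), 1 point per array and a line at each group mean. For the ER genes together the PLS-123 mean was -0.23 and that of 10 μM ibrutinib -0.10, and for the cytosolic genes -0.05 and 0.07.

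Averaged over its 28 measured genes, the ER arm lay -0.23 ± 0.04 from vehicle with PLS-123, -0.10 ± 0.02 with 10 μM ibrutinib and -0.03 ± 0.01 with 1 μM ibrutinib (mean log2 difference ± SD over 3 arrays). The cytosolic arm of 14 genes lay at -0.05 ± 0.06, 0.07 ± 0.01 and -0.02 ± 0.02. These means describe the lists, of unlike genes, and no test was made between them. Within the ER arm the mean with PLS-123 was -0.27 for folding, -0.18 for degradation and transport and -0.16 for sensors and eIF2α. The spread within each role was wide, from -1.20 to 0.32 in folding and from -0.56 to 0.54 in degradation and transport.

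Genes with and without a promoter element are set side by side here. Of the 9 ER genes with either ER stress element, PLS-123 lowered 3 (SDF2L1, CRELD2 and HERPUD1) and raised 0, with a median difference of -0.12. Of the 16 measured ER genes with a window and neither element, it lowered 7 and raised 2, with a median of -0.14. Of the 6 measured cytosolic genes with a heat shock element it lowered 1 (DNAJB6), and of the 7 with a window and none it lowered 2. Of all genes that were not dim, PLS-123 lowered 19.8% and raised 11.2%. The counts by element are descriptions, without a test.

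At the matched dose of 1 μM the drugs could be compared directly. PLS-123 gave lower values than ibrutinib for 10 ER genes and higher values for 2, and in the cytosolic arm lower values for 3 and a higher value for 1. Over all probe sets 7.93% were called lower and 4.58% higher, and over the genes that were not dim 16.1% and 8.54%. ERP44 differed by -1.06 (95% confidence interval -1.23 to -0.89, limma adjusted p = 9.42e-07), PPP1R15A by -0.89 (-1.16 to -0.62, limma adjusted p = 0.000313) and SDF2L1 by -0.73 (-0.95 to -0.51, limma adjusted p = 0.000276). The next were CRELD2 (-0.57), DERL2 (-0.57), DERL1 (-0.53 in its brightest probe set), SEL1L (-0.52), DNAJB11 (-0.38), ERN1 (-0.36) and MANF (-0.31), and the genes higher with PLS-123 were EDEM1 (0.46) and DNAJB9 (0.27). Without array A of 1 μM ibrutinib, 10 ER genes were called lower and 1 higher, and 2 cytosolic genes lower and 1 higher. Of the 16 calls 11 held in all 12 fits that left out 1 array. DNAJB9 was not called without any 1 array of either group (limma adjusted p up to 0.105), MANF without array B or C of either group (up to 0.07), and ERN1 without array B or C of 1 μM ibrutinib or array A or C of PLS-123 (up to 0.122). Without array A of PLS-123, 9 ER genes were called lower and 1 higher, and 2 cytosolic genes lower and 1 higher. With the ACTB difference as a covariate 8 of the 16 calls were lost, those of DNAJB9, DNAJB11, CRELD2, MANF, ERN1, DNAJB1, DNAJB4 and STIP1. Of these, DNAJB11, CRELD2 and STIP1 (limma adjusted p = 0.0786, 0.0786 and 0.0722) had held without any 1 array. That fit called 1695 of all 54613 probe sets lower and 1279 higher, against 4333 and 2502 without the covariate.

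In the cytosolic arm PLS-123 was below 1 μM ibrutinib for STIP1 (-0.48, limma adjusted p = 0.00289), DNAJB6 (-0.45, limma adjusted p = 0.00274) and DNAJB1 (-0.28, limma adjusted p = 0.0408) and above it for DNAJB4 (0.45, limma adjusted p = 0.0152). DNAJB1 was not called without any 1 array of either group, array A of vehicle or array B or C of 10 μM ibrutinib (limma adjusted p up to 0.163), and DNAJB4 was not called without array B or C of 1 μM ibrutinib or array C of PLS-123 (up to 0.0766). For HSPA5 the drugs differed by -0.12 (-0.32 to 0.08), for HSP90AA1 by -0.02 (-0.18 to 0.14) and for HSPH1 by 0.02 (-0.20 to 0.25), intervals that leave room for differences of that width. HSPB1 was 0.34 higher with PLS-123 and was not called (0.10 to 0.58, limma adjusted p = 0.0597).

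PLS-123 at 1 μM and ibrutinib at 10 μM were not given at the same dose, so that their difference cannot be assigned to the compound or to the dose. Lower values with PLS-123 were called for ERP44 (-0.63, 95% confidence interval -0.80 to -0.45, limma adjusted p = 0.00792) and DERL2 (-0.46, -0.62 to -0.29, limma adjusted p = 0.0343), and higher values for 0 ER genes, with 10 ER genes at an unadjusted p under 0.05 and 0 called by the methods' t-test. Over all probe sets 0.132% were called lower and 0.0513% higher, and over the genes that were not dim 0.233% and 0.0997%. An unadjusted p under 0.05 was found for 8333 of all 54613 probe sets. With dim probe sets left out, 6784 of 27307 had one. The ER differences were negative for 24 of 28 genes, with a median of -0.14, against -0.06 over the genes that were not dim. In the cytosolic arm 0 of 14 genes were called by limma, 4 had an unadjusted p under 0.05, and the methods' t-test called 0. HSPB1 was nearest to the threshold at -0.56 (-0.79 to -0.32, limma adjusted p = 0.0602). Neither ER call held in every fit. ERP44 was not called without array B of 10 μM ibrutinib (limma adjusted p = 0.0566). DERL2 was not called without any 1 array of vehicle or 10 μM ibrutinib, array C of 1 μM ibrutinib or array B or C of PLS-123 (limma adjusted p up to 0.197). With the ACTB difference as a covariate both were lost (limma adjusted p = 0.0675 and 0.225). That fit called 8 of all 54613 probe sets lower and 6 higher, against 72 and 28 without the covariate. Without array A of 1 μM ibrutinib, 1 ER gene was called higher and 1 cytosolic gene lower.

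**Figure D5:**
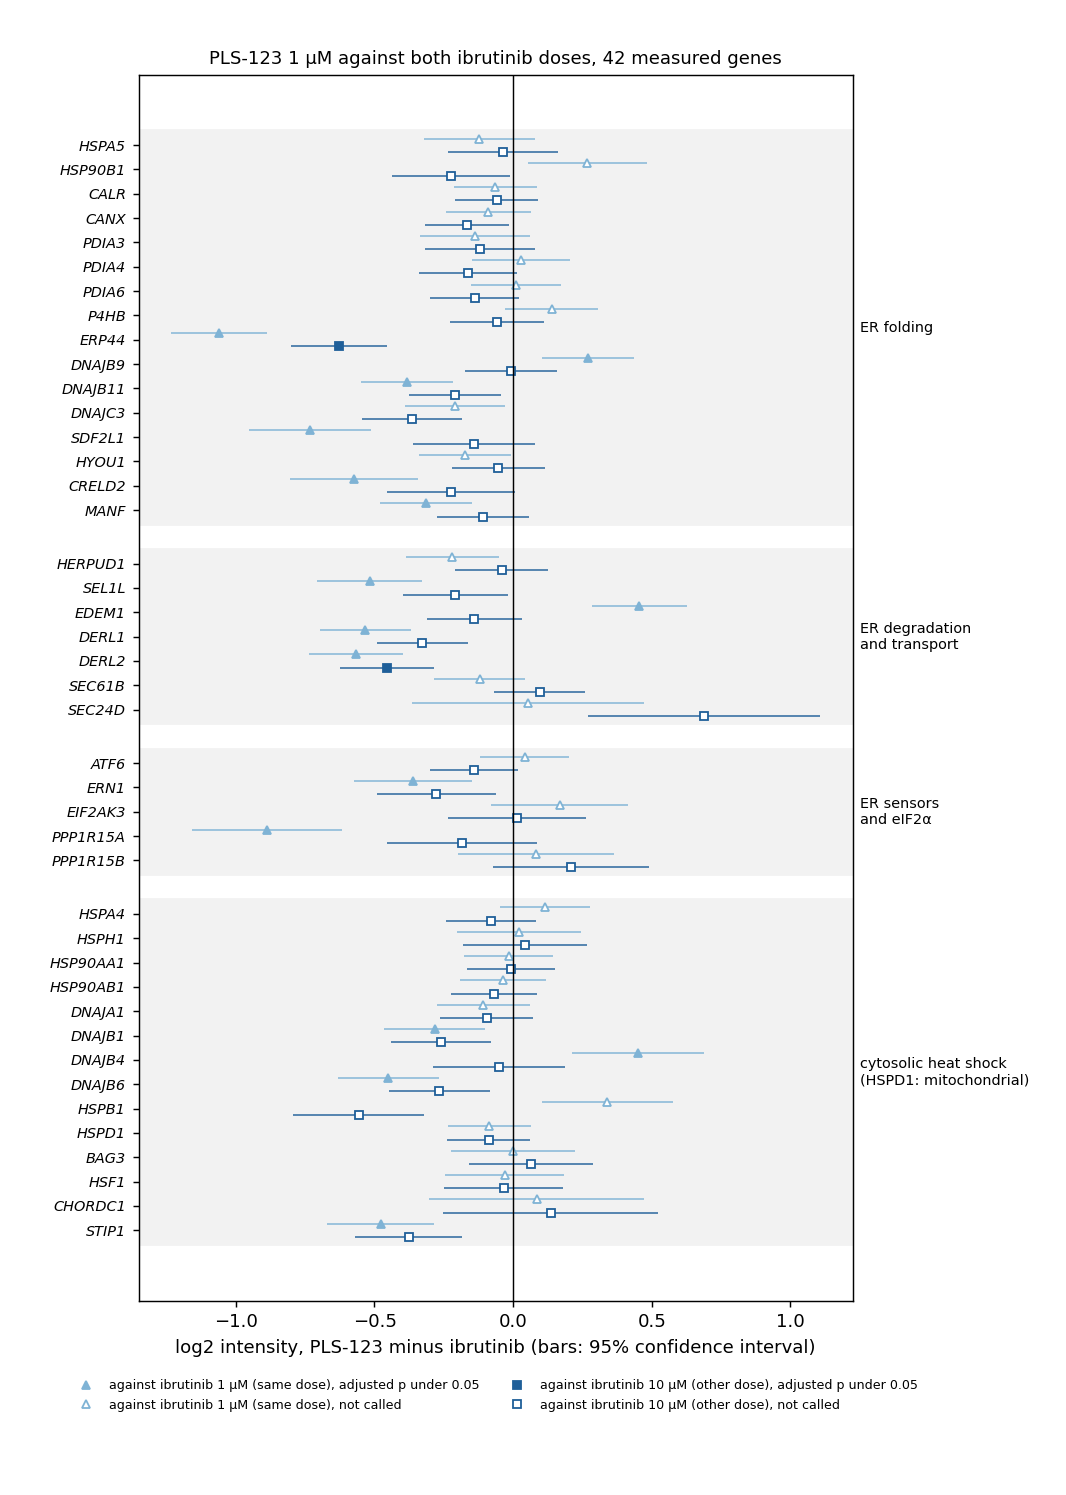
Difference in log2 intensity (horizontal axis, bars for the 95% confidence interval) between 1 μM PLS-123 and ibrutinib at 1 μM (triangles, the same dose) or 10 μM (squares, another dose) for the 42 measured genes by role. Filled marks have a limma adjusted p under 0.05, 16 genes against 1 μM ibrutinib and 2 (ERP44 and DERL2) against 10 μM ibrutinib.

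Other genes of these pathways, from lists by function, were read in the same way. The shares to read these counts against are those of the genes that were not dim, 19.8% lower and 11.2% higher with PLS-123 and 9.03% and 10.4% with 10 μM ibrutinib. These shares are not matched in brightness to the lists. Of 14 transcription factors and processing enzymes of the ER stress response, PLS-123 lowered 5 and raised 3, and 10 μM ibrutinib lowered 2 and raised 3. XBP1, the factor that IRE1 activates by splicing, rose by 0.37 with PLS-123 and by 0.50 with 10 μM ibrutinib (limma adjusted p = 0.0131 and 0.00245), although the array does not tell its spliced from its unspliced form. ATF4, the factor whose translation eIF2α phosphorylation favours, fell by 0.26 with PLS-123 (limma adjusted p = 0.0276). DDIT3 (CHOP), a target of ATF4 that promotes cell death, fell by 1.08 with PLS-123 and by 0.76 with 10 μM ibrutinib (limma adjusted p = 2.26e-05 and 0.000571). ATF5, a related factor, fell by 1.48 and by 1.30 (limma adjusted p = 2.22e-08 and 9.4e-08), and NFYB, a subunit of the CCAAT-binding factor NF-Y, rose by 0.40 with PLS-123.

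Of 41 other genes of ER protein entry and folding, PLS-123 lowered 10 (24.4%) and raised 4 (9.76%), near those shares. SEC62, a component of post-translational translocation, fell by 0.63, DAD1, a subunit of the oligosaccharyltransferase, fell by 0.61, and SEC11C, a catalytic subunit of the signal peptidase, fell by 0.54. Of 22 other genes of ER degradation it lowered 8 and raised 1: UBE2J1, the ubiquitin-conjugating enzyme of the ER membrane, fell by 1.34 (limma adjusted p = 5e-08), NGLY1, which strips glycans from retrotranslocated proteins, fell by 0.67, UBE2J2 fell by 0.38, and EDEM3, a relative of EDEM1, rose by 0.49.

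Of 30 other cytosolic chaperones and co-chaperones PLS-123 lowered 6 and raised 1, a share lower near the 19.8% of all genes that were not dim. HSPBP1, an exchange factor of Hsp70, fell by 0.84, FKBP5, an Hsp90 co-chaperone of steroid receptors, rose by 0.62, and CDC37, which brings kinases to Hsp90, fell by 0.47. Of 12 subunits of the chaperonin TRiC and of prefoldin, 2 were lowered (PFDN2 by -0.39 and PFDN1 by -0.29) and 0 raised. The share lower, 16.7%, was also near the 19.8%. The third smallest adjusted p, that of CCT5 (-0.20, limma adjusted p = 0.0859), missed the threshold. Of 8 mitochondrial chaperones and proteases, 6 were lowered and 0 raised: LONP1, the matrix protease, fell by 0.70, GRPEL1, the exchange factor of mitochondrial Hsp70, fell by 0.50 and DNAJA3, its J-protein, fell by 0.43.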

How the data were processed

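The values were the intensities that the authors deposited, 1 per probe set and array, on a linear scale after RMA (background correction, quantile normalization and probe summary; the submitters' processing notes name RMA and give no version). Their log2 was taken with no pseudocount. The 62 control probe sets were left out and 54613 were tested. Gene symbols came from the platform annotation: 41091 probe sets had 1 symbol, 1801 several and 11721 none. One model with a mean for each of the 4 groups (12 arrays, 3 per group) was fitted with limma 3.58.1 in R 4.3.3 (lmFit, eBayes), with Benjamini-Hochberg adjustment over all tested probe sets. The scripts were tested on simulated data. The study's methods name Student's t-test, which was run as an alternative. The number of arrays limits the precision.

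The 46 genes, the other gene lists and the tests were chosen with earlier results of these data known. All 46 genes may be named, with array values for 14 core genes and the 4 of each role with the smallest adjusted p for PLS-123 against vehicle. From the other lists XBP1, ATF4, DDIT3 and the 3 smallest are named, and further genes were named after their values were seen. Groups came from the sample labels. The letters A to C were not used to pair the arrays, and no label says if they mark pairs. Residual correlations between same-letter arrays were -0.25 to 0.22. Arrays of unlike letters were not compared, so these values cannot settle it. A comparison of protein ends was not made here, as no protein sequences were used.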

Additional observations from a re-analysis of the deposited data

How the results depend on the processing

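Each number below is a count of called genes that differed from the reported count by more than 1.5 times. With the methods' t-test on the same values, cytosolic genes higher with 10 μM ibrutinib became 2, ER genes higher with PLS-123 became 1 and cytosolic genes higher 1; for PLS-123 against 1 μM ibrutinib, 4 ER genes were lower and 0 cytosolic genes lower or higher, and against 10 μM ibrutinib 0 ER genes were lower. Of all 54613 probe sets, the t-test called 1737 lower and 1761 higher with 10 μM ibrutinib and 3398 and 1733 with PLS-123. Against 1 μM ibrutinib it called 1103 lower and 731 higher, and against 10 μM 2 and 0. With the 2 groups of a comparison alone, 1 ER gene was higher against 1 μM and 0 lower against 10 μM ibrutinib. With an intensity trend in the spread, 10 ER genes were lower and 2 cytosolic genes higher with 10 μM ibrutinib, 5 cytosolic genes lower and 1 higher with PLS-123, 2 cytosolic genes higher against 1 μM ibrutinib, and against 10 μM ibrutinib 6 ER genes lower, 1 higher and 3 cytosolic genes lower.

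With dim probe sets left out, 10 ER genes were lower and 2 cytosolic genes higher with 10 μM ibrutinib, 2 cytosolic genes higher against 1 μM, and 4 ER and 2 cytosolic genes lower against 10 μM ibrutinib. With 1 probe set per gene tested, 9 ER genes were lower with 10 μM ibrutinib, 2 cytosolic genes higher against 1 μM and 1 lower against 10 μM. With a pseudocount of 16, 10 ER genes were lower and 4 higher and 2 cytosolic genes higher with 10 μM ibrutinib, 2 cytosolic genes higher against 1 μM, and 6 ER and 3 cytosolic genes lower against 10 μM. With quantile normalization or centring on normalization controls, 2 cytosolic genes were higher against 1 μM ibrutinib, and with quantile normalization 1 ER gene was lower against 10 μM. With the median over a gene's probe sets, 2 cytosolic genes were higher with 10 μM ibrutinib, 5 lower and 1 higher with PLS-123, 1 ER and 2 cytosolic genes higher against 1 μM, and 1 ER and 2 cytosolic genes lower against 10 μM. That setting turned PDIA3 (0.078) and DERL1 (0.34) with PLS-123, and DERL1 against 1 μM ibrutinib (0.20) since, taken array by array, it follows the probe sets of middle brightness.

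With the ACTB difference as a covariate, 1 ER gene was higher and 0 cytosolic genes lower with PLS-123. Against 1 μM ibrutinib, 6 ER genes and 1 cytosolic gene were lower and 0 cytosolic genes higher, and against 10 μM 0 ER genes were lower. Of all 54613 probe sets, that fit called 1928 lower and 1552 higher with PLS-123, 1695 and 1279 against 1 μM, and 8 and 6 against 10 μM. With a change of 1.5-fold and an unadjusted p under 0.05 in place of the adjusted p, 2 ER genes were lower and 1 higher with 10 μM ibrutinib, 4 ER genes lower, 0 higher and 0 cytosolic genes lower with PLS-123, 3 ER genes lower, 0 higher and 0 cytosolic genes lower or higher against 1 μM, and 1 ER gene lower and 1 higher against 10 μM. Except for the median over probe sets, the cause of these changes was not tested.

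With the sample letter as a replicate block, 1 ER gene was higher against 1 μM ibrutinib and 1 lower against 10 μM. The other counts were within 1.5 times, and no label says if the letters mark pairs. Leaving out 1 array at a time gave 4 to 8 ER genes lower, 1 to 2 higher and 1 to 2 cytosolic genes higher with 10 μM ibrutinib; 10 to 12 ER genes lower, 2 to 2 higher, 2 to 4 cytosolic genes lower and 0 to 1 higher with PLS-123; 8 to 10 and 1 to 2 ER genes and 2 to 3 and 0 to 1 cytosolic genes lower and higher against 1 μM; and 0 to 2 and 0 to 1 ER genes and 0 to 1 and 0 to 0 cytosolic genes against 10 μM. At 1 μM ibrutinib 0 genes were called in every fit. Under all 12 other alternatives and every array left out, the calls of ERP44, SDF2L1 and CRELD2 with PLS-123, of SDF2L1, EDEM1, PPP1R15A and HSPB1 with 10 μM ibrutinib and of ERP44 against 1 μM ibrutinib kept their direction and side of the threshold. With 3 arrays per group, small differences could not be resolved.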
